A study of Mus musculus with 2 samples.

Results

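Nephron progenitor and early nephron genes were examined in dissected ureters of E14.5 mouse embryos. The 10 genes were Six2, Cited1, Wt1, Pax2, Pax8, Eya1, Lhx1, Gdnf, Meox1 and Foxd1. They were found by the RefSeq accession that the array files give for each probe, which yielded 12 probes among the 39396 measured on both arrays. Of these, 11 probes passed the filter on dim probes, and they represented all 10 genes among the 20629 genes tested.

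The study compared 2 genotypes of ureter, all on the NMRI strain. The labelled knockout carried Tbx18(cre/+) together with Tbx2(fl/fl) and with Tbx3(fl/fl), and the control carried Tbx18(+/+) together with Tbx2(fl/?) and with Tbx3(fl/?). The controls carried floxed alleles too, no Cre, and an unspecified second allele of each gene. The Tbx18 locus drove Cre, and its known domain is the progenitors of ureteric mesenchyme, so other cell types of the ureter keep Tbx2 and Tbx3 unless they descend from such progenitors. There were 2 two-colour arrays, each with 1 labelled knockout RNA and 1 control RNA: a female pair with the knockout in AlexaFluor647 (red) and a male pair with the knockout in AlexaFluor555 (green). Sex and dye orientation therefore cannot be told apart. The number of embryos behind an RNA is not given here, and p-values measure only the spread between these samples.

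Nephrons, the filtering units of the kidney, arise from a cap of mesenchymal progenitors that surrounds each tip of the branching ureteric bud. The cap keeps itself through SIX2, EYA1, PAX2, SALL1, WT1 and related factors and signals to the bud through GDNF and its receptor RET. Induced progenitors then form vesicles that express PAX8 and LHX1, while FOXD1 marks the stroma outside the cap. The ureter itself makes no nephrons and joins the kidney at the renal pelvis. The genes examined were therefore taken as markers of kidney tissue in a ureter preparation, which was not tested. Several also have other known sites: Wt1 in gonad and mesothelium, and Pax2, Pax8 and Lhx1 in mesonephric duct derivatives. Mean log2 intensity of the controls was 15.26 for Foxd1 and 13.56 for Eya1, beside 14.06 for Tbx18, a gene of ureteric mesenchyme. The other genes examined lay lower, with Six2 at 8.97 and Gdnf at 7.54. Whether ureteric mesenchyme itself gave part of these signals was not tested.

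In the arrays as a whole, well above background were 70.8% of green and 66.9% of red spots in the female pair, and 71.6% and 64.3% in the male pair, and 0 were saturated. The labels were checked on the targeted genes: Tbx3 had a log2 ratio of -1.09 ± 0.10 (SD, n = 2 pairs) and Tbx2 of 0.86 ± 0.12, the latter against its label. Whether either probe lies in a deleted stretch was not tested. Directions follow the labels throughout. The defining markers of the labelled tissue were present, with all 10 urothelium genes and all 10 genes of ureteric mesenchyme passing the filter. Passing does not single out ureter, since all 10 nephron genes passed as well, as did 25934 of 39396 probes. The genes of ureteric mesenchyme did not all keep their level. Among them, the smooth muscle genes Myh11, Acta2 and Tagln fell, with log2 ratios of -3.44, -3.04 and -2.62.

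No gene among the 10 changed across both pairs by the test used, but the pairs did not give the same picture. With limma over all genes, 0 of 10 passed an adjusted p of 0.05, where 3.68% of all genes tested passed. At an unadjusted p under 0.05 there were 3 (Foxd1, Meox1 and Pax8), against 14.1% of all genes. By size, Six2 and Wt1 were more than 1.5-fold higher in the knockout RNA of the male pair, that is 2 of 10 where 1.01% of all genes were, and 0 of 10 were 1.5-fold lower there, where 1.48% were. In the female pair 0 of 10 were 1.5-fold higher, where 1.01% of all genes were, and 0 of 10 were 1.5-fold lower, where 0.95% were. The log2 ratio of the male pair lay over 0.5 above that of the female pair for 3 of 10 (Six2, Gdnf and Wt1), where 0.577% of all genes did, and over 0.5 below it for 0 of 10, where 1.3% did. With 1 pair per sex that difference has no test, and these genes were taken up with earlier results on Six2 and Wt1 known.

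**Figure D1:**
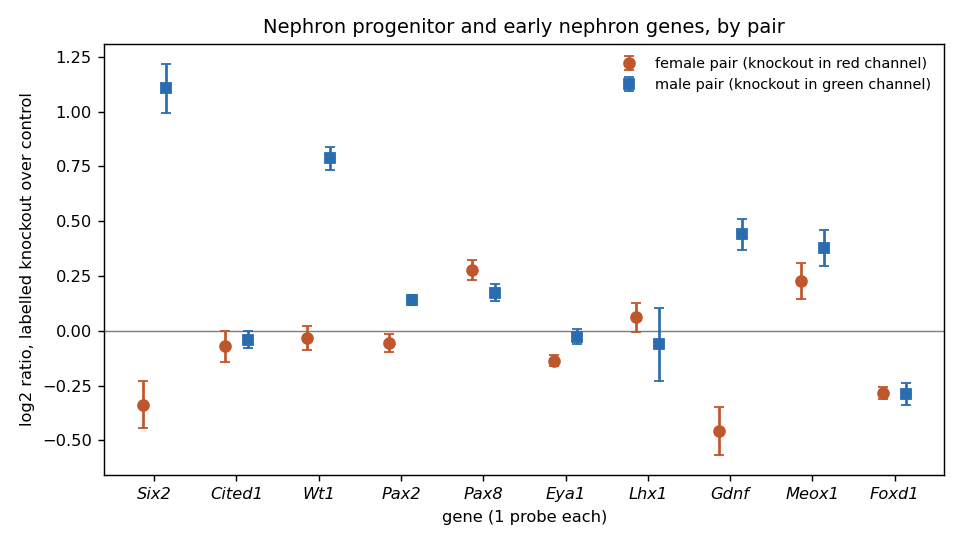
Log2 ratio of labelled knockout over control (y axis) for the 1 probe that represents each gene (x axis), in the female pair (circles) and the male pair (squares); bars are the SD over the 4 spots of the probe and show technical error only. Six2 stands at -0.34 and 1.11, whereas Foxd1 stands at -0.28 and -0.29.

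Six2, the transcription factor that keeps nephron progenitors undifferentiated, differed most between the pairs. Its normalized log2 intensity was 8.89 in the female control, 8.55 in the female knockout, 9.04 in the male control and 10.15 in the male knockout. The male knockout RNA was the high one, and the other 3 lay within 0.49 log2 units of each other. The female log2 ratio was -0.34 (SD over 4 spots 0.11) and the male one 1.11 (spot SD 0.11), which is 0.792-fold and 2.15-fold. Its mean was 0.38 ± 1.02 (SD, n = 2 pairs), with a 95% interval from -0.33 to 1.10 (limma, adjusted p = 0.741). The difference of 1.44 between the pairs was larger in size than that of 99.9% of the genes tested, and in the male-higher direction it ranked 2 of 20629. A second, dimmer Six2 probe gave -0.22 (spot SD 0.18) and 0.80 (spot SD 0.074), although its female knockout channel was well above background on 1 of 4 spots. Both Six2 probes thus placed the pairs on opposite sides of 0.

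The promoter of Six2 is shown with those of Gdnf, which also had opposite directions in the pairs, and Cited1, which did not. They are the 250 bases before the outermost start site of each gene in the RefSeq promoter table (GRCm38.p6), 5′ to 3′ on the gene's strand. Capitals mark matches to the letters CCAAT (the CCAAT box) or TATAAA (the TATA box) on either strand.
Six2, chr17:85688255-85688504, minus strand: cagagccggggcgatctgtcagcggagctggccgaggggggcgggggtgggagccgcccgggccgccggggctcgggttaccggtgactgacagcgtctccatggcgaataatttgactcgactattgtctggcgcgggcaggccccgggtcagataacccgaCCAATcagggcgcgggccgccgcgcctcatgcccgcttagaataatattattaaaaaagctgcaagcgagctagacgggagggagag
Gdnf, chr15:7809798-7810047, plus strand: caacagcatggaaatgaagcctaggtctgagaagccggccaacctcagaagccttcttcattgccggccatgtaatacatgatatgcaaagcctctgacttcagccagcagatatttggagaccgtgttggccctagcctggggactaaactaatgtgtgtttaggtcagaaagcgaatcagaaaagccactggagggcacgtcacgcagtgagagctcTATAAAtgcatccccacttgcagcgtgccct
Cited1, chrX:102252182-102252431, minus strand: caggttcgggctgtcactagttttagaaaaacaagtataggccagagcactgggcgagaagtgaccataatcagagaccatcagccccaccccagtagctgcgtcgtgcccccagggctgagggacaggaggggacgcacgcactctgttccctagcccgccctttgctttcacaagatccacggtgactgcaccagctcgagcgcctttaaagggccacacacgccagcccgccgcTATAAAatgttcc
The Six2 window holds a CCAAT match that starts 87 bases before the start site, and the Gdnf window a TATAAA match 31 bases before it. In Cited1 a TATAAA match starts 13 bases before the outermost start site, and this gene has other start sites. Of 32851 windows of this length in the table, 33.8% hold CCAAT and 12.4% hold TATAAA. The T-box core GGTGTGA, bound by proteins of the family of TBX2 and TBX3, was searched in the same way and is in 3.33% of all windows and in 0 of 12 windows of the 7 member genes that the table holds. The first 9 letters of the SIX2 motif, TCANGTTTC, are in 0.989% of all windows and in 0 of these 12, and the WT1 and EGR motif GCGNGGGCG in 4.70% and in 1, a further Cited1 window. These matches describe letters only, and overlapping matches were counted once per window. No window was found for Wt1, Eya1 and Meox1, so their promoters were not searched. The Pax2 windows were searched and held no match to any of these letters.

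Wt1, a zinc finger factor of nephron progenitors and later of podocytes, had log2 intensities of 11.89 in the female control, 11.86 in the female knockout, 11.50 in the male control and 12.29 in the male knockout. The female RNAs were nearly level, and the male RNAs lay on either side of them. The female log2 ratio was -0.032 (spot SD 0.055) and the male one 0.79 (spot SD 0.052), a 1.73-fold difference in the latter. The mean was 0.38 ± 0.58 (SD, n = 2 pairs), with a 95% interval from -0.050 to 0.81 (limma, adjusted p = 0.435). The difference between the pairs, 0.82, was larger in size than that of 99.6% of genes.

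Gdnf, the ligand that draws and branches the ureteric bud, had log2 intensities of 7.55 in the female control, 7.09 in the female knockout, 7.53 in the male control and 7.97 in the male knockout. The controls were level with each other, and the knockouts lay below them in the female and above them in the male pair. The female log2 ratio was -0.46 (spot SD 0.11) and the male one 0.44 (spot SD 0.071). With the processed signals, background-subtracted by the scanner program, these were -0.89 and 0.69, so the size of both depends on the signal used. The mean was -0.0087 ± 0.64 (SD, n = 2 pairs, 95% interval from -0.47 to 0.45, limma adjusted p = 0.997). The difference of 0.90 was larger in size than that of 99.7% of genes.

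The genes with large differences between pairs differed in their total signal. The mean of both channels was higher in the male than in the female pair by 0.87 log2 units for Six2 and 0.43 for Gdnf, which exceeded in size 99.9% and 99.2% of genes. For Wt1 that shift was 0.017. Between the controls, the male minus the female level was 0.15 for Six2, -0.022 for Gdnf and -0.39 for Wt1. Between the knockouts it was 1.59, 0.88 and 0.43. The comparisons between controls and between knockouts are open to dye bias, because each kind of RNA carried a different dye in each pair, whereas the mean of both channels holds 1 of each dye on both arrays.

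**Figure D2:**
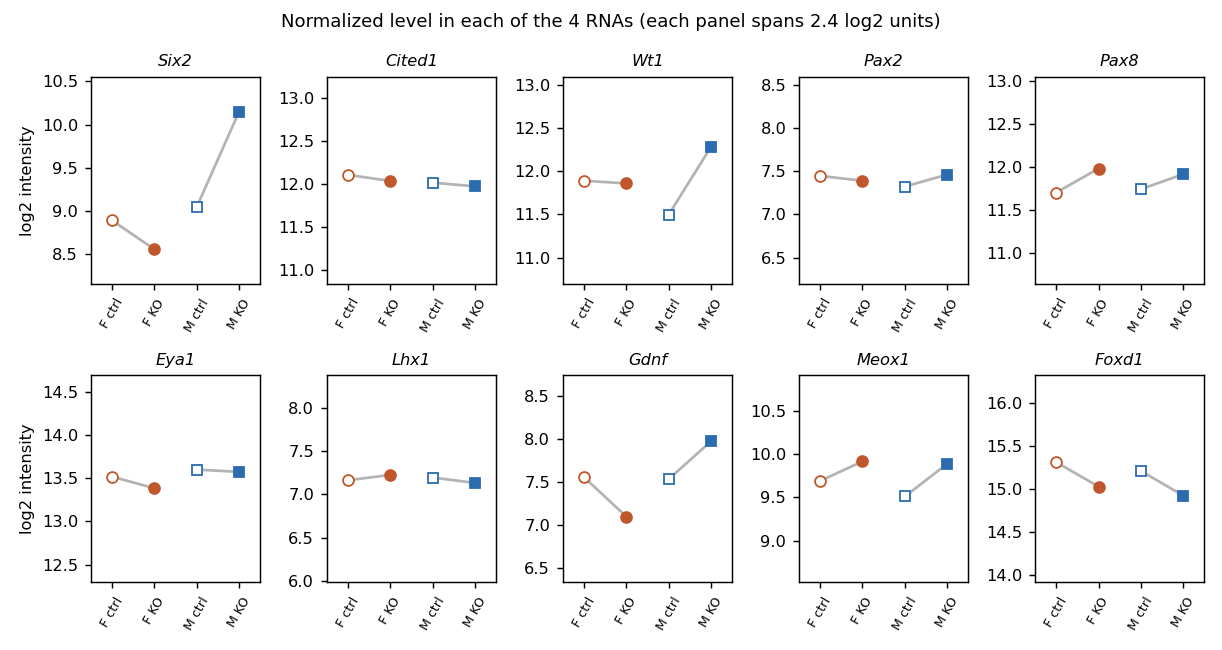
Normalized log2 intensity (y axis, each panel with its own start and the same span) of the 10 genes in the 4 RNAs: female control, female knockout, male control and male knockout (F or M, ctrl or KO), 1 value each, with lines joining the RNAs of 1 array. Six2 stands at 10.15 in the male knockout, while Cited1 stays between 11.98 and 12.11 in all 4 RNAs.

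Cited1 and Eya1, also of the progenitor cap, had male minus female ratios of 0.030 and 0.11. Cited1, a transcriptional coregulator and a marker of the least differentiated progenitors, is X-linked and had log2 intensities of 12.11 and 12.04 in the female control and knockout, and of 12.02 and 11.98 in the male control and knockout. Its 4 RNAs lay within 0.13 log2 units. Its mean log2 ratio was -0.056 ± 0.021 (SD, n = 2 pairs, 95% interval from -0.21 to 0.10, limma adjusted p = 0.878). Eya1, the phosphatase and coactivator that partners SIX2, had log2 intensities of 13.52 and 13.39 in the female control and knockout and of 13.60 and 13.58 in the male control and knockout. It had a mean log2 ratio of -0.081 ± 0.077 (SD, n = 2 pairs, 95% interval from -0.25 to 0.085, limma adjusted p = 0.782). Under median centring in place of loess, the male ratios of Cited1 and Eya1 crossed 0, to 0.074 and 0.029.

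Meox1, a homeobox gene of the progenitor cap and of somites, was above its control in both pairs. Its log2 intensities were 9.69 and 9.92 in the female control and knockout and 9.51 and 9.89 in the male control and knockout, so the 2 knockouts lay above the 2 controls. The ratios of 0.23 (spot SD 0.083) and 0.38 (spot SD 0.082) gave a mean of 0.30 ± 0.11 (SD, n = 2 pairs), short of the threshold over all genes (95% interval from 0.13 to 0.48, limma adjusted p = 0.0932). Pax2, a paired-box factor of both the progenitor cap and the ureteric bud, had log2 intensities of 7.45, 7.39, 7.32 and 7.46 in the female control and knockout and the male control and knockout. Its mean was 0.041 ± 0.14 (SD, n = 2 pairs, limma adjusted p = 0.944), with ratios of -0.056 and 0.14, but of -0.18 and 0.39 with the processed signals and of -0.19 and 0.39 with the deposited table. The male ratio of Pax2 then lay 0.57 and 0.58 above the female one, past the 0.5 used for Six2, Gdnf and Wt1. A further Pax2 probe was well above background on 0 spots of any RNA, so no ratio is given for it.

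Of the early nephron factors, Pax8, the paired-box factor of induced progenitors, had log2 intensities of 11.70 and 11.98 in the female control and knockout and of 11.74 and 11.92 in the male control and knockout. Both knockouts lay above both controls. The mean log2 ratio was 0.23 ± 0.074 (SD, n = 2 pairs, 95% interval from 0.061 to 0.39), short of the threshold over all genes (limma adjusted p = 0.180). Lhx1, a LIM homeobox factor of the renal vesicle, had log2 intensities of 7.17, 7.23, 7.20 and 7.13 in the same order. Its mean was -0.00023 ± 0.088 (SD, n = 2 pairs, limma adjusted p = 0.999), and its male control was well above background on 2 of 4 spots. Its sign turned under 5 alternatives.

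Foxd1, a forkhead factor of renal stroma and not of the cap, was the member closest to the threshold and the one on which the pairs differed least. Its log2 intensities were 15.31 and 15.03 in the female control and knockout and 15.21 and 14.92 in the male control and knockout, so both knockouts lay below both controls. The ratios of -0.28 (spot SD 0.029) and -0.29 (spot SD 0.050) gave a mean of -0.29 ± 0.0028 (SD, n = 2 pairs, 95% interval from -0.44 to -0.13, limma adjusted p = 0.0835), or 0.821-fold. That closeness of the pairs depended on the normalization: with median centring the ratios were -0.14 and -0.35, with a mean of -0.24 (adjusted p = 0.701).

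Among themselves, 5 of 10 genes had ratios on opposite sides of 0 in the pairs (Six2, Wt1, Gdnf, Pax2 and Lhx1), where 44.2% of all genes did. Meox1 and Pax8 were above 0 in both, and Cited1, Eya1 and Foxd1 below 0 in both. The median over the 10 was -0.064 (female pair) and 0.16 (male pair), against -0.0077 and 0.0074 over all genes. The median size of the difference between pairs was 0.14 over the 10 and 0.10 over all genes. While 7 of 10 differed by at most 0.5, 3 lay over 0.5 higher in the male pair. Over all genes, 0.577% lay over 0.5 higher there and 1.3% over 0.5 lower.

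**Figure D3:**
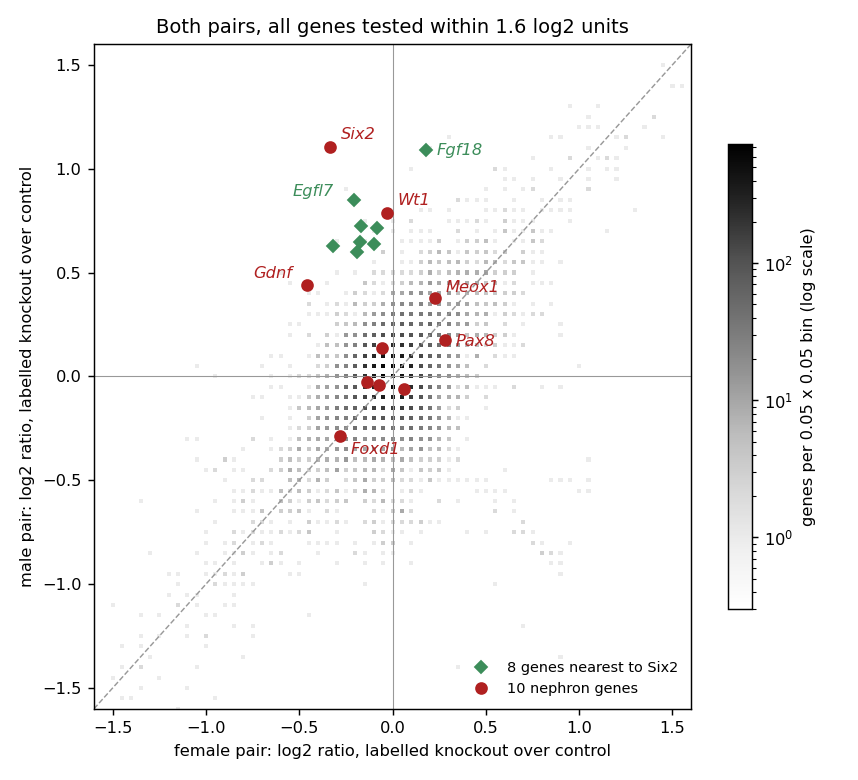
Log2 ratio in the female pair (x axis) against the male pair (y axis), as bins of all genes tested within 1.6 log2 units (grey, log scale of genes per bin), the 10 nephron genes (red circles) and the 8 genes nearest to Six2 (green diamonds). The dashed line marks equal ratios; Six2, Wt1 and Gdnf lie above it by 1.44, 0.82 and 0.90, and Foxd1 lies on it.

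The 8 genes whose ratios lay nearest to those of Six2, by Euclidean distance over the 2 pairs, were Egfl7, Sfrp4, Rspo1, Tnfsf10, Igfbp6, Fgf18, Higd1c and Pnpla3, at distances from 0.29 to 0.53. Wt1 would have come among them, at 0.44. Egfl7, a secreted factor of endothelium, was nearest, at -0.20 and 0.85. The other 5 endothelial markers tested lay between 0.079 and 0.36 in the male pair. Rspo1, a WNT agonist of the progenitor cap and the gonad, was at -0.085 and 0.71, and Fgf18, a growth factor, at 0.18 and 1.09. The log2 intensities of Fgf18 were 12.62 and 12.80 in the female control and knockout and 11.77 and 12.86 in the male ones. Its male control was thus the low RNA, whereas for Six2 the male knockout was the high one. None of the 8 passed (limma, lowest adjusted p = 0.186). They were chosen for ratios near those of Six2, which differ between the pairs, so failing the test follows largely from that choice. Hes5, a Notch effector found in forming nephrons and in neural tissue, was chosen after its values were seen. Its ratios were -0.86 and 1.69, and it ranked 1 in the male-higher direction, ahead of Six2. The log2 intensities of Hes5 were 8.47 and 7.61 in the female control and knockout and 7.28 and 8.97 in the male ones, so its controls were not level.

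Other genes of the progenitor cap were examined as a list of 20, of which 18 passed the filter and Fgf20 and Uncx did not. Osr1, a zinc finger factor of early kidney mesenchyme, rose, with a mean log2 ratio of 0.43 ± 0.11 (SD, n = 2 pairs, limma adjusted p = 0.0296). Ncam1, a cell adhesion protein shared with neurons, fell, at -0.61 ± 0.17 (adjusted p = 0.0127). Both calls ended with the processed signals, with median centring and with the deposited table. The other 16 did not pass, beside a background of 1.87% higher and 1.81% lower calls over all genes. The same background holds for the lists that follow. Calls with an adjusted p near 0.05 are uncertain, since simulated spots gave more false calls than that rate allows. Medians were -0.055 (female pair) and 0.10 (male pair), and 1 of 18, Rspo1, lay over 0.5 higher in the male pair. Summed over the list, the log2 intensity was 17.46, 17.26, 17.37 and 17.30 in the female control and knockout and the male control and knockout. Ncam1 weighed heavily in that sum. Without it, an alternative added after the values were seen, the sums were 16.77, 16.83, 16.76 and 16.86 in the same order. Both knockouts then lay above their controls instead of below them, so the direction of the sum rests on Ncam1.

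For genes of the pretubular aggregate, renal vesicle and S-shaped body, 14 of 14 were tested. Tmem100, a membrane protein also found in endothelium, rose, at 0.75 ± 0.041 (SD, n = 2 pairs, limma adjusted p = 0.00269), and 13 did not pass. Among these was Wnt4, the inducer of the mesenchymal to epithelial transition, at 0.26 and 0.12. Fgf8, a growth factor of the vesicle, at -0.25 and 0.36, was over 0.5 higher in the male pair, although its male control was well above background on 0 of 4 spots. Sox9, a factor of the forming nephron and of bud tip and gonad, went the other way, at 0.24 and -0.46. Of podocyte genes, 6 of 8 were tested and 0 passed. The podocyte gene with the largest mean was Ptpro, a receptor phosphatase of the filtration barrier, at 0.29 ± 0.088 (SD, n = 2 pairs, limma adjusted p = 0.0963). Of tubule genes, 7 of 12 were tested. The matrix protein Spp1 rose, at 0.70 ± 0.11 (SD, n = 2 pairs, limma adjusted p = 0.00533), 6 did not pass, and Hnf4a, Slc12a1, Slc12a3, Slc34a1 and Umod were too dim, 3 of these with no spot above background.

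Kidney stroma, to which Foxd1 belongs, had 12 of 12 genes tested. Its member Aldh1a2 is also on the list of ureteric mesenchyme, so the list is not that of kidney stroma alone. The opioid precursor Penk rose, at 0.43 ± 0.0099 (SD, n = 2 pairs, limma adjusted p = 0.0202), Fibin, a secreted protein of mesenchyme, fell, at -0.36 ± 0.053 (adjusted p = 0.0441), and 10 did not pass. Each of these calls ended under 4 of 13 alternatives. Medians were -0.11 and -0.071 in the female and the male pair. Ren1, the renin gene, chosen after its values were seen, had ratios of 0.23 (female) and -0.62 (male), opposite in sign to those of Six2. Its log2 intensities were 8.95 and 9.19 in the female control and knockout and 10.69 and 10.07 in the male ones. The male control was thus its highest RNA, and its controls were not level as those of Six2 nearly were.

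The partners of these factors and the GDNF pathway formed a list of 21 genes, all tested, of which 3 rose, 0 fell and 18 did not pass. Over all genes tested, 1.87% were called higher and 1.81% lower. Grem1, the BMP antagonist needed for bud outgrowth, was at 1.69 ± 0.31 (SD, n = 2 pairs, limma adjusted p = 0.000846), or 2.87 with the processed signals. Its male control was well above background on 1 of 4 spots, so the size of its male ratio is uncertain. Etv5, a transcription factor downstream of RET, was at 0.46 ± 0.057 (adjusted p = 0.0187), and Gfra1, the co-receptor of GDNF, at 0.34 ± 0.0066 (adjusted p = 0.0480). Ret itself, at 0.069 and -0.19, did not pass. Median ratios of the list were 0.0081 and 0.023. Among 10 genes of the ureteric bud tip, 4 rose and 6 did not pass, beside the same 1.87% called higher over all genes. Of the 4, Etv5 and Gfra1 are the genes already counted among the partners. The others were the ligand Wnt11, at 0.69 ± 0.11 (SD, n = 2 pairs, adjusted p = 0.00538), and the receptor kinase Ros1, at 0.36 ± 0.050 (adjusted p = 0.0427, and 1.02 with the processed signals). The male control of Ros1 was well above background on 0 of 4 spots and its female RNAs on 3 of 4 each, so its ratio is uncertain too. The calls of Etv5, Ros1 and Gfra1 ended under 3, 4 and 6 alternatives, with Etv4, at -0.034 and -0.0053, beside them. Among the 4 that rose, the male minus the female ratio lay between 0.0094 and 0.15. With 2 pairs a call favours genes whose pairs lie close, so this small range follows partly from the selection.

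Of collecting duct genes, 9 of 10 were tested and 0 passed, with Aqp3 at 0.32 ± 0.15 (SD, n = 2 pairs) and Cdh16 at 0.24 ± 0.020. Of mesothelium genes, which mark a tissue that has Wt1, 6 of 7 were tested and 0 passed. Their male ratios lay between -0.39 and 0.037, below the 0.79 of Wt1. The lower end was Upk1b. Both Upk1b and Krt19 are also on the urothelium list, so the range is not that of mesothelium alone. Of gonad and adrenal genes, 9 of 12 were tested and 0 passed, with medians of -0.057 and 0.068 and male ratios from -0.46 to 0.19. Of mesonephric and paramesonephric duct genes, which include Pax2, Pax8 and Lhx1, 6 of 8 were tested and 0 passed. Of urothelium genes 0 of 10 passed, and of immune genes 0 of 6, although the urothelium gene Upk3a passed under 1 alternative, and the immune genes Lyz2 and Ptprc under 4 and 1. Among neuron and glia genes 1 of 6 rose, Dbh, the noradrenaline-making enzyme, at 0.62 ± 0.32 (SD, n = 2 pairs, limma adjusted p = 0.0404), with single ratios of 0.39 (female) and 0.85 (male), a call that ended under 5 alternatives. The part of any of these tissues in the ratios of Six2, Wt1 and Gdnf was not tested, and in such bulk RNA fewer cells of a type and less RNA per cell cannot be told apart.

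**Figure D4:**
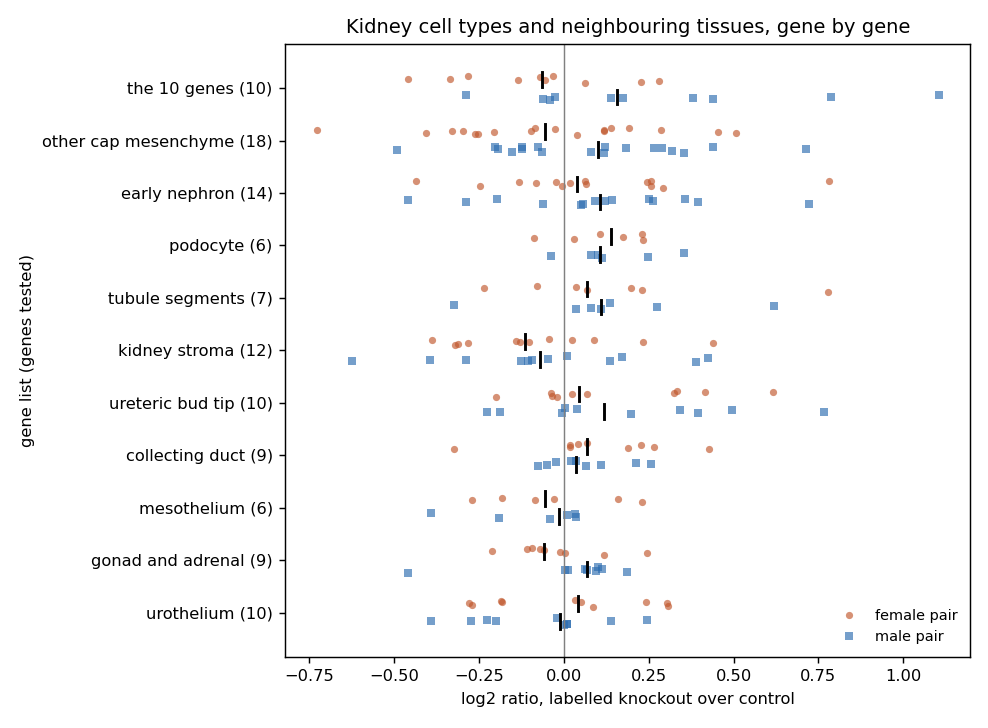
Log2 ratio of labelled knockout over control (x axis) for each gene tested of the lists on the y axis, with the number of genes. The female pair is drawn as circles and the male pair as squares, and black bars are list medians. Not drawn are the partners, ureteric mesenchyme, mesonephric and paramesonephric duct, immune cells, endothelium, and neurons and glia. The male ratio of Six2, 1.11, is the farthest point to the right among those drawn. Grem1, of the partners, would lie farther right, at 1.91 (female) and 1.47 (male). The mesothelium and collecting duct lists hold no male ratio above 0.26.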

How the data were processed

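The submitters' processing notes name Agilent Feature Extraction 10.7.3.1. The deposited scanner files hold, per their file headers, spot intensity, local background intensity and other values that flag spots. The authors' value table holds a deposited signed fold score per probe, made by steps not given here. Its direction was taken from correlations of 0.982 and 0.985 with the scanner files' processed signals. Its floor and centring stay unknown.

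Mean intensities were corrected with normexp (offset 50) and normalized by loess within arrays. Non-uniform spots were left out, and the 4 spots of a probe were averaged. Ratios were turned to labelled knockout over control. Probes were kept where more than 0.5 of spots were well above background for the knockout or the control of both arrays, which left 25934 of 39396. RefSeq (GRCm38.p6) named 28303 probes by accession. The brightest kept probe stood for a gene. Levels per RNA were also set to equal mean-intensity quantiles between arrays (Aquantile). Log2 ratios were tested with limma 3.58.1 in R 4.3.3 (two-sided, Benjamini-Hochberg over 20629 genes, 1 residual degree of freedom, prior 5.24). The number of arrays limits the precision. The steps were tested on simulated spots. Of genes changed 1.5-fold, 2-fold and 4-fold (67, 67 and 66), 98.5%, 100% and 100% were called. Of 20429 unchanged genes 57 were called too, which is more than the nominal rate allows. Named genes were the 10 members, up to 4 called genes of each of 16 lists or else the 2 with the largest mean, and the 8 nearest to Six2 (standard symbols, not sex-linked). Some genes that this rule names are not reported here. The members and lists were chosen with earlier results of these data known.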

Additional observations from a re-analysis of the deposited data

Results flagged for a closer look

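These genes had log2 ratios of labelled knockout over control above 0 in one pair and below 0 in the other. None of these differences was tested, since each sex has 1 pair and its own dye orientation. Each value is the male minus the female ratio.

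Among the nephron genes the difference was 1.44 for Six2, 0.90 for Gdnf, 0.82 for Wt1, 0.19 for Pax2 and -0.12 for Lhx1. Genes near Six2 were chosen by their ratios, so a large difference of the same sign was built in. Among them the difference was 1.06 for Egfl7, 0.95 for Tnfsf10, 0.89 for Sfrp4 and 0.82 for Igfbp6. It was 0.80 for Rspo1, 0.79 for Pnpla3 and 0.74 for Higd1c. For Sox9, a factor of the forming nephron, bud tip and gonad, it was -0.70, from 0.24 in the female to -0.46 in the male pair.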

How the results depend on the processing

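Over 13 alternatives for all genes, 0 of the 10 nephron genes passed in each. The lowest adjusted p was 0.0575 for Foxd1 and 0.0636 for Meox1. The count of genes called fell from 759 (385 higher, 374 lower) to 463 (249 and 214) with the processed signals, to 242 (114 and 128) with median centring and to 285 (142 and 143) with the deposited table, and the cause was not tested. Mean log2 ratios of 8 nephron genes kept their sign throughout. Lhx1 turned from -0.00023 to 0.0055 without background subtraction, 0.035 with processed signals, 0.029 with the median of pixels, 0.0021 with scaling between arrays and 0.036 with the deposited table, and Gdnf turned from -0.0087 to 0.0045 without background subtraction. Over the 11 alternatives compared by pair, Six2 lay between -0.41 and -0.27 in the female and between 0.95 and 1.24 in the male pair, and Wt1 between 0.74 and 0.90 in the male pair. Some of the 11 left both genes at their main values, namely the other filters, keeping outlier spots and taking every probe by itself. The ranges therefore rest on fewer settings. Leaving out replicate 1 or 2 leaves the single pairs given above, with no test and no count. The test was paired by array, because each ratio compares the knockout and the control RNA of 1 array. A further block would leave no residual degree of freedom. For the dimmer Six2 probe, Pax2, Lhx1, Fgf8, Grem1 and Ros1, spots not well above background limit the ratios.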
